A study of Mus musculus with 4 samples.

Results

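The 9 intermediate filament genes *Gfap*, *Vim*, *Nes*, *Des*, *Prph*, *Nefl*, *Nefm*, *Nefh* and *Ina* were taken by symbol from the 33456 genes listed in the matrices, and all 9 had UMIs in every library. A UMI (unique molecular identifier) marks 1 captured RNA molecule, and a barcode stands for 1 cell. The data are droplet-based single cell RNA-seq of dorsal root ganglia (DRG) from C57BL/6 mice aged 8–12 weeks, with 2 libraries of uninjured ganglia (control) and 2 of ganglia whose sciatic nerve had been crushed 3 days earlier (injury). The sample labels name L4 ganglia and the paper's methods name L4 and L5. Ganglia were dissociated with papain and collagenase and sorted for live cells, so the libraries hold cells that survived both steps. The labels number 1 library of each condition 2 and leave the other without a number, and the latter is called replicate 1 here. The series text calls the libraries of a condition biological replicates. Per the study's reporting summary the cells of several mice were pooled for each batch, so a library stands for a pool and not for 1 animal.

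Intermediate filaments are rope-like polymers that give cells mechanical strength, and each cell type builds them from its own set of subunits. Vimentin (*Vim*) is the subunit of mesenchymal cells and of many glia, nestin (*Nes*) is made by progenitors, Schwann cells and vessel cells, and desmin (*Des*) by muscle and by the contractile cells around vessels. Glial fibrillary acidic protein (*Gfap*) is the filament of astrocytes and of non-myelinating Schwann cells, and its rise in satellite glial cells (SGC), the glia that wrap each sensory neuron, is a widely used sign of nerve injury. Neurons of the ganglion build neurofilaments from the light, medium and heavy chains (*Nefl*, *Nefm*, *Nefh*), alpha-internexin (*Ina*) and peripherin (*Prph*), which fill the axon and set its calibre.

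The 4 matrices held between 1294 and 2509 barcodes and between 5585909 and 11210875 UMIs each, and 20 barcode sequences occurred in more than 1 library. As the matrices carry no cell names, barcodes were assigned to types by fixed lists of marker genes that contain no member, which left 632 of 6975 barcodes unassigned. The numbers of barcodes per type differed between libraries. Control replicate 1 held 78 SGC and 27 neurons, whereas control replicate 2 held 655 and 192, injury replicate 1 held 597 and 39, and injury replicate 2 held 350 and 93. Non-myelinating glia, defined by the sodium channel gene *Scn7a* together with shared glial genes, numbered 29 and 2 in control and 72 and 4 in injury. Levels are in CPM, the number of UMIs per 1000000 UMIs of the summed barcodes. Their barcodes carried the SGC markers at 2317 CPM, against 186 CPM in myelinating Schwann cells, and the myelinating Schwann cell markers at 272 CPM, so the name stands for the *Scn7a* gate only. Glial barcodes without an *Scn7a* UMI that reached neither the SGC nor the myelinating Schwann cell limits are called remaining glia (50, 38, 253 and 18 barcodes). This class was added after the data were seen, and its barcodes also carried SGC markers, between 1710 and 8769 CPM against 16612 CPM in SGC. Levels are given for sums of at least 10 barcodes, with n the number of such libraries. A share of all UMIs cannot tell a change in RNA per cell from a change in the other RNA of that cell.

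On the GRCm38 assembly with the GENCODE M21 annotation, *Gfap* lies on chromosome 11 (102887336 to 102900912), *Vim* on chromosome 2 (13573927 to 13582826), *Nes* on chromosome 3 (87971078 to 87980451), *Des* on chromosome 1 (75360329 to 75368579) and *Prph* on chromosome 15 (99055174 to 99058978). *Nefl* (68083863 to 68089095, plus strand) and *Nefm* (68082590 to 68124846, minus strand) overlap on opposite strands of chromosome 14. *Nefh* lies on chromosome 11 (4938754 to 4948064) and *Ina* on chromosome 19 (47014698 to 47025327). A RefSeq promoter (GRCm38.p6) was matched to 6 of the 9 genes. The 250 bases before the start site are shown for *Gfap*, *Prph* and *Des*, as a glial, a neuronal and a vessel wall gene. The capitals mark the letters of a TATA box.

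Gfap chr11:102897201-102897450 (minus strand): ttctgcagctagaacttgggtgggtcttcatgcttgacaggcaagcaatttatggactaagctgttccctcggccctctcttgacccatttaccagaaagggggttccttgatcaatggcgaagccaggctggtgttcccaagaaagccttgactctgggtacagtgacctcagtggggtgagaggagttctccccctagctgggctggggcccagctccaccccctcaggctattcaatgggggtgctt

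Prph chr15:99054924-99055173 (plus strand): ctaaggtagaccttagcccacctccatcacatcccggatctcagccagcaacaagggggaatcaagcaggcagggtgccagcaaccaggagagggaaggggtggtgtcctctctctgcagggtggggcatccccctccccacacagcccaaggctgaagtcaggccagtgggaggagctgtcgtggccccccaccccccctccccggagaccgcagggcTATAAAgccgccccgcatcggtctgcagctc

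Des chr1:75360042-75360291 (plus strand): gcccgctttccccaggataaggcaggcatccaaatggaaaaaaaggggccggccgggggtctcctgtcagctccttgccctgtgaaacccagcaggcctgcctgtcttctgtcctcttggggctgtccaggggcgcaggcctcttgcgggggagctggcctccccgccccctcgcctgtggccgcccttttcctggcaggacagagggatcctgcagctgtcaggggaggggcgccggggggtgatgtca

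Both strands of the 6 windows were searched for TATAAA, for the AP-1 letters TGANTCA, for the ATF letters TGACGTCA and for the STAT letters TTCNNNGAA. TATAAA was found in *Prph*, 31 to 26 bases before the start, and in *Vim*, 32 to 27 bases before it, against 12.4% of 32851 promoter windows of this length. All 250 bases of the *Vim* window lay in annotated exons. The *Gfap* window lay inside the gene span given above, so both start sites are internal to the annotated genes. The other 3 motifs were found in none of the 6 windows, and in 6.75% (AP-1), 1.55% (ATF) and 7.02% (STAT) of all windows. A match is a description of the letters only.

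The members divided into a mainly glial set, a vessel wall gene and a neuronal set, with *Nes* spread over glia and vessels. *Prph*, *Nefl*, *Nefm*, *Nefh* and *Ina* had between 95.3% and 97.9% of their UMIs in the 351 neurons. *Gfap* had 78.9% of its 166 UMIs in glia, and *Vim* had 55.0% in SGC alone. The *Gfap* share rests on the injury libraries, which gave 158 of these UMIs, while in control 4 of 8 lay in glia. *Des* had 30.1% in pericytes and 26.4% in smooth muscle, with a further 38.4% in unassigned barcodes.

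**Figure D1:**
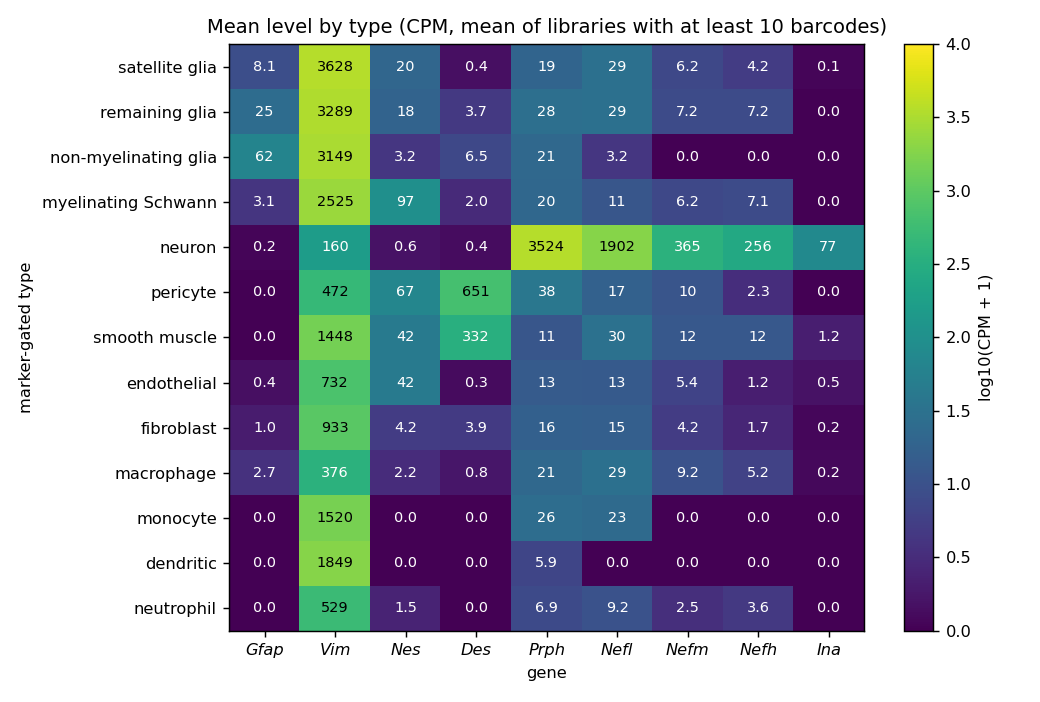
Mean level of each member (columns) in each marker-gated type (rows), in CPM averaged over the libraries with at least 10 barcodes, coloured on a log10(CPM + 1) scale. *Prph* reads 3524 CPM in neurons, *Vim* 3628 CPM in satellite glia and *Des* 651 CPM in pericytes.

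*Gfap* was rare. It gave 2 and 6 UMIs in the whole of control replicates 1 and 2, and 132 and 26 UMIs in injury replicates 1 and 2. Scaled to depth the control levels were 0.358 and 0.535 CPM and the injury levels 11.8 and 2.74 CPM. Injury replicate 1 held most of these UMIs. With the libraries of each condition pooled, the injury level was 16.1 times the control level (95% interval 7.96 to 37.9), and 5.76 times without injury replicate 1 (2.53 to 14.7). These intervals cover counting error only. Whole-library levels also depend on the mix of cell types, which differed between libraries, and the part of this mix in the ratios was not tested.

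In SGC, *Gfap* had 0 UMIs in control replicate 1, 1 in control replicate 2, 60 in injury replicate 1 and 12 in injury replicate 2. The corresponding levels were 0, 0.327, 25.6 and 6.51 CPM, so the conditions did not overlap. Of all genes tested in SGC, 10.3% had both injury libraries above both control libraries. The 0 of control replicate 1 rests on 238830 UMIs and allows up to 12.6 CPM (3 counts), above the level of injury replicate 2, so that the contrast at that level rests on control replicate 2. The pooled ratio was 56.7 (9.85 to 2269), and without injury replicate 1 it was 21.4 (3.17 to 917). In edgeR's quasi-likelihood test on the summed UMIs the log2 fold change was 5.50 ± 1.15 (SE, n = 2 libraries per condition). This fitted value depends on the prior count, as control held 1 UMI. The unadjusted p was 0.00122 and the p adjusted over all 9482 genes tested was 1.0. In that comparison 0% of all genes were called at an adjusted p under 0.05, with 117 genes at an unadjusted p under 0.05 and 1 gene called by DESeq2. *Gfap* itself was called in 4 of its 8 alternatives, with an adjusted p of 6.5e-07 when no filter on low counts was used and of 0.0033 with the number in the title as a block. It was also called without control replicate 1 (0.020) and without injury replicate 2 (4.5e-06). The call of this gene therefore depended on the processing. Under the stricter gate, the looser gate and the study's cell limits, control replicates 1 and 2 had 0 UMIs and 1 or 2 UMIs, and injury replicates 1 and 2 had at least 54 and at least 8.

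The share of SGC with a *Gfap* UMI was 0% in control replicate 1, where 0 of 78 allows up to 3.85%, and 0.153% in control replicate 2. It was 7.37% (44 of 597, exact binomial interval 5.41 to 9.77) in injury replicate 1 and 2.86% (10 of 350, 1.38 to 5.19) in injury replicate 2. When every barcode was thinned to 1000 UMIs (mean of 20 draws), which left out no SGC, the injury shares were 2.35% and 0.686% and both control shares were 0%. In neurons, which do not make GFAP, 0.285% of barcodes had a *Gfap* UMI (1 of 351) at a median of 20675 UMIs, against 4078 in SGC. The neuron share had an interval of 0.00721 to 1.58, but it pooled control and injury libraries. Its 1 barcode was among the 39 neurons of injury replicate 1, and the 93 neurons of injury replicate 2 had 0 *Gfap* UMIs. So few neurons cannot set a background for a single injury library. Most SGC of the injury libraries thus had no *Gfap* UMI at this depth, which does not show that they lacked the transcript.

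The other glia are given by type. Whether the change after crush differed between these types was not tested, and no test result for *Gfap* is given in remaining glia. In remaining glia *Gfap* had 0 UMIs in both control libraries, which allows up to 34.4 and 19.3 CPM, and 36 and 3 UMIs in the injury libraries (63.0 and 37.1 CPM). All 3 UMIs of injury replicate 2 came from 1 barcode. Against a floor of 3 counts over the pooled control, the injury level was at least 4.83-fold higher, with an exact lower limit of 3.75 for the pooled ratio. The floor gave at least 1.74-fold without control replicate 2, 3.10-fold without control replicate 1 and 3.00-fold without injury replicate 1. Non-myelinating glia carried *Gfap* in both conditions. Control replicate 1 had 2 UMIs (46.2 CPM), both in 1 barcode, and injury replicate 1 had 12 UMIs (77.9 CPM) in 9 of 72 barcodes, with the counting intervals of the libraries overlapping. The pooled ratio there was 1.38 (0.386 to 7.51), counting also the sums of 2 and 4 barcodes in the libraries numbered 2. It turned to 0.592 without control replicate 1 and was 2.06 without injury replicate 1, with wide counting intervals, so no direction is given for it. Myelinating Schwann cells had 0 and 0 UMIs in control and 1 and 1 in injury, which is within the floor. In macrophages the 10 UMIs of injury replicate 1 (3.79 CPM) all came from a single barcode, and injury replicate 2 had 0. Control replicates 1 and 2 had 0 and 2 UMIs there (0 and 7.10 CPM). Fibroblasts had 0 and 0 UMIs in control and 4 and 2 in injury (2.63 and 1.41 CPM), at most 1 per barcode.

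**Figure D2:**
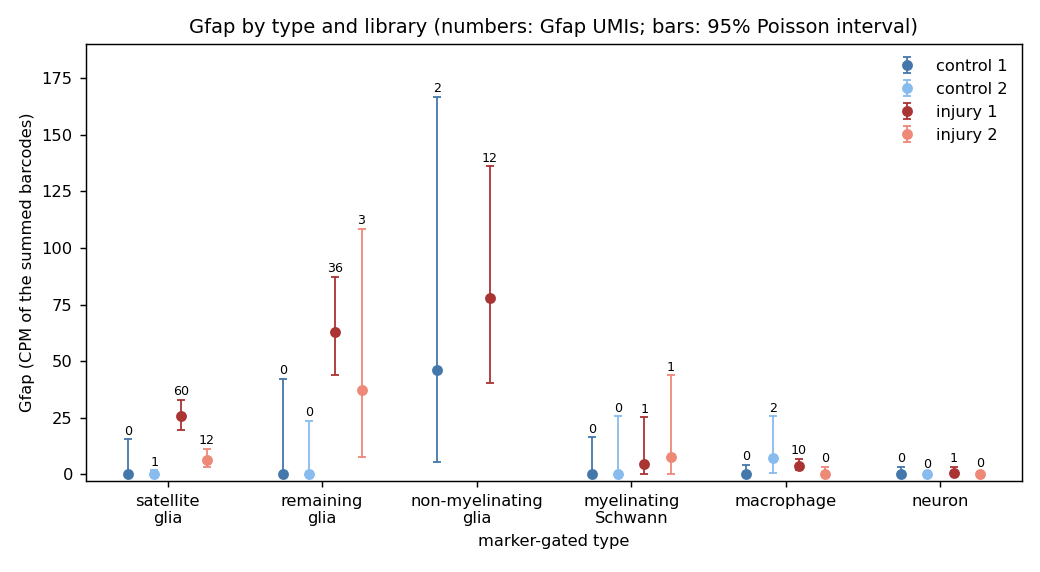
*Gfap* level (CPM) in 5 glial and other types and in neurons, 1 point per library with at least 10 barcodes, with the exact 95% Poisson interval as bar and the number of *Gfap* UMIs above it. The injury points of satellite glia are at 25.6 and 6.51 CPM and the control points at 0 and 0.327 CPM, while both non-myelinating points stand above 40 CPM with wide intervals.

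Whether the effect of crush on *Gfap* differed between types was tested as an interaction term. That fit had no library term, so the sums of both types from the same library were treated as independent. The difference between SGC and macrophages was 5.08 ± 2.88 (log2, SE; edgeR, adjusted p = 1.00, unadjusted p = 0.108), and between SGC and non-myelinating glia 4.29 ± 2.28 (adjusted p = 0.832, unadjusted p = 0.0917). In both comparisons 0% of all genes were called, with 265 and 394 genes at an unadjusted p under 0.05, and DESeq2 was not run for this term. Between types, with the library as a block, *Gfap* was 2.04 ± 0.850 lower (log2) in SGC than in non-myelinating glia (edgeR, adjusted p = 0.184, with 5.77% of genes called). It was 3.62 ± 1.21 higher in non-myelinating glia than in myelinating Schwann cells (adjusted p = 0.0606, range over the alternatives 0.0241 to 0.349). The comparisons across types with non-myelinating glia rest on the 2 libraries numbered 1 for that type.

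*Vim*, the filament that most glia share, was abundant in all glial types. Its level was 3628 ± 1197 CPM in SGC (SD, n = 4), 3289 ± 747 in remaining glia (n = 4), 3149 ± 503 in non-myelinating glia (n = 2) and 2525 ± 699 in myelinating Schwann cells (n = 4), and the ranges of neighbours in this order overlapped. In SGC it was 3639 and 2387 CPM in control and 5244 and 3244 CPM in injury. The conditions overlapped, as control replicate 1 lay above injury replicate 2. The log2 change was 0.58 ± 0.32 (edgeR, adjusted p = 1.00). Myelinating Schwann cells had 2177 and 1713 CPM in control and 3025 and 3183 CPM in injury, remaining glia 2731 and 2714 against 4296 and 3413 CPM, and smooth muscle 1080 and 1164 against 1536 and 2012 CPM. In these 3 types the injury libraries lay above the control libraries, with log2 changes of 0.65, 0.50 and 0.65, and none passed the test (edgeR, adjusted p = 0.998 to 1.00). Of all genes tested, 13.6%, 14.4% and 14.9% had their injury libraries above the control libraries in the same 3 types. In macrophages *Vim* was at 358 and 362 CPM in control and 484 and 301 CPM in injury, with no order between the conditions. The effect of crush on *Vim* did not differ detectably between SGC and myelinating Schwann cells, with an interaction of -0.12 ± 0.42 (log2, SE; edgeR, adjusted p = 1.00), and 0 of 2 members tested were called there against 0.025% of all genes.

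After crush, 0 of the members tested were called in any of the 9 non-neuronal types with at least 10 barcodes in every library, at a background of 0% of all genes in each. Between 4 and 574 genes per type had an unadjusted p under 0.05, *Gfap* in SGC being the 1 member among them, and DESeq2 called between 0 and 16 genes per type, with no member.

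Nestin marked Schwann cells and vessels. In myelinating Schwann cells *Nes* was at 53.8 and 104 CPM in control and 81.3 and 149 CPM after crush. SGC had 12.6, 23.9, 18.4 and 24.4 CPM, below the Schwann cells of every library. The difference between SGC and myelinating Schwann cells was -2.04 ± 0.343 (log2, SE; edgeR, adjusted p = 8.4e-06), and it was called in all 10 alternatives. In that comparison 18.6% of all genes were called. *Nefl* was also called there (1.61 ± 0.578, adjusted p = 0.0426) but only in 1 of 10 alternatives, without the filter on low counts. Non-myelinating glia had 0 UMIs of *Nes* in control replicate 1 and 1 in injury replicate 1 (6.49 CPM), so that the fitted difference to myelinating Schwann cells (-4.30 ± 0.995, edgeR, adjusted p = 0.00277; 7.33% of genes called) rests on 1 UMI, and it was not called without injury replicate 1 (adjusted p = 0.286).

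In vessels, *Nes* stood at 65.1 and 68.9 CPM in the pericytes of control replicate 1 and injury replicate 1, against 53.8 and 81.3 CPM in the myelinating Schwann cells of the same libraries, so these types had no fixed order. It was at 42.1 ± 17.1 in endothelial cells (n = 4) and 42.0 ± 10.1 in smooth muscle (n = 4). Endothelial cells exceeded the mean of the other non-neuronal types by 3.54 ± 0.539 (log2; edgeR, adjusted p = 4.9e-07), against 30.3% of all genes called, and *Nes* was the only member called. That mean includes B cells, T cells, dendritic cells and monocytes, which had 0 *Nes* UMIs, while the means of pericytes and myelinating Schwann cells were above that of endothelial cells. After crush endothelial *Nes* was 28.1 and 46.7 CPM against 29.3 and 64.4 CPM in control, a difference smaller than the spread between libraries.

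*Des*, the desmin of contractile cells, was highest in the vessel wall. Pericytes had 631 and 670 CPM in control replicate 1 and injury replicate 1, the libraries with enough pericytes, and smooth muscle had 494 and 281 CPM in control and 386 and 169 CPM in injury. The 2 types did not overlap, but the difference within libraries was 0.67 ± 0.34 (log2; edgeR, adjusted p = 0.335). No other assigned type had a mean above 6.49 CPM, and unassigned barcodes had between 67.0 and 215 CPM. *Vim* took the opposite order, with 384 and 560 CPM in pericytes against 1080, 1164, 1536 and 2012 CPM in smooth muscle, a difference of -1.93 ± 0.398 (edgeR, adjusted p = 7.1e-04) that held in all 10 alternatives. In that comparison 5.63% of genes were called. After crush, *Des* in smooth muscle differed by -0.46 ± 0.47 (log2, adjusted p = 1.00), with overlapping conditions.

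The neuronal subunits were measured in all 351 neurons, of which 68 lay within the cell limits of the study, since neurons carry many UMIs. *Prph*, which forms filaments with the neurofilament chains in small sensory neurons, was at 3578 and 3733 CPM in control and 3196 and 3587 CPM in injury. *Nefl* was at 1793 and 1891 against 1675 and 2250 CPM, and *Nefm* at 369 and 353 against 373 and 366 CPM. For these 3 genes the conditions overlapped. *Nefh*, the heavy chain of large axons, was at 188 and 242 CPM in control and 257 and 335 CPM in injury, and *Ina* at 64.3 and 56.4 against 115 and 72.6 CPM. *Vim* in neurons was at 66.1 and 147 against 260 and 168 CPM. For *Nefh*, *Ina* and *Vim*, 3 of the 6 members tested, both injury libraries lay above both controls in summed CPM, as they did for 14.9% of all genes tested in neurons. The log2 changes were 0.59 ± 0.23, 0.79 ± 0.32 and 1.14 ± 0.41 (edgeR, adjusted p = 0.487, 0.498 and 0.452), and 0 of the 6 members tested were called, with 0.00942% of all genes called. An unadjusted p under 0.05 was seen for 1057 genes, these 3 members among them, and DESeq2 called 142 genes with no member. Without the filter on low counts *Vim* passed (adjusted p = 0.0030) and 602 genes were called, against 1. The medians over single neurons kept the order of the sums for *Ina* but not for *Nefh* and *Vim*. Median *Nefh* UMIs per 10000 UMIs were 0.960 and 0.714 in control and 1.21 and 0.817 in injury. Those of *Vim* were 0.338 and 1.02 against 1.77 and 0.980, and those of *Ina* 0.409 and 0.429 against 0.562 and 0.469. In control, 3 barcodes gave 125 of the 208 *Nefh* UMIs of replicate 1, and 3 gave 588 of the 971 of replicate 2.

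As background to these values, neurons exceeded the mean of the non-neuronal types by 7.59 ± 0.198 for *Prph*, 7.79 ± 0.214 for *Nefl*, 7.57 ± 0.245 for *Nefm*, 6.91 ± 0.306 for *Nefh* and 8.13 ± 0.393 for *Ina* (log2, SE; edgeR, adjusted p from 8.2e-35 to 8.3e-20). *Vim* was lower by 2.41 ± 0.261 on the same scale (-2.41, adjusted p = 2.0e-11). Of the 9 members 5 were called higher and 1 lower, against 52.9% of all genes called, 41.3% higher and 11.5% lower, and none of the 6 genes reversed in any alternative. *Ina* was called in 9 of its 10 alternatives and not by DESeq2 (5.99, adjusted p = 0.310). *Gfap*, *Nes* and *Des* were not called and had 1, 6 and 5 UMIs in all neurons, so no difference is given for them.

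Crush reaches only neurons whose axon runs in the sciatic nerve. Neurons of the injury libraries were therefore split by *Sprr1a*, a gene that injured sensory neurons switch on. With at least 1 UMI as the limit, 25 of 39 neurons in injury replicate 1 and 24 of 93 in injury replicate 2 were positive, against 1 of 219 in control. The negative neurons were not shown to be uninjured. *Atf3*, another injury gene, was at 251 CPM (11 of 14 neurons) and 39.0 CPM (22 of 69) in the negative neurons of injury replicates 1 and 2. It was at 95.1 and 74.9 CPM in control neurons and at 1248 and 845 CPM in positive neurons. *Vim* was at 66.1 and 147 CPM in control neurons, 161 and 120 CPM in negative neurons and 294 and 251 CPM in positive neurons of injury replicates 1 and 2. Both positive sums lay above all other sums, as did those of 12.1% of all genes tested. The difference between positive and control neurons was 1.55 ± 0.35 (log2; edgeR, adjusted p = 0.0259), with 10.3% of all 9346 genes called. It was lost without control replicate 1 (1.16, adjusted p = 0.0837), without injury replicate 1 (1.40, 0.210) or 2 (1.70, 0.106), and with *Atf3* in place of *Sprr1a* (1.29, 0.162). The *Atf3* split also took 1 UMI as its limit, which 102 of 219 control neurons and 33 of 83 *Sprr1a*-negative neurons reached. It thus set injured neurons apart less sharply than *Sprr1a*. *Sprr1a*-positive neurons exceeded the negative neurons of the same libraries by 1.15 ± 0.35 (edgeR, adjusted p = 0.110, with 4.25% of genes called). This fit had no library term and did not use the pairing. A fit with the library as a block called 1235 of all genes, against 397 without it. With the library as a block that difference was 1.12 with an adjusted p of 6.9e-05, and it was also called without control replicate 1 (0.0426) or 2 (0.0456).

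Markers of SGC, which are rich in *Vim* and wrap the neurons, were also present in the neuron sums. All 8 SGC markers together were at 19.0 and 436 CPM in the control neurons, 94.5 and 316 CPM in the negative neurons and 111 and 324 CPM in the positive neurons of replicates 1 and 2. Between negative and positive neurons of the same library they differed less than between libraries, while *Vim* was higher in the positive neurons of both. *Vim* UMIs per SGC marker UMI were 0.312 and 0.129 in the SGC of control replicates 1 and 2, and 0.363 and 0.193 in those of injury replicates 1 and 2. In neurons the values of replicates 1 and 2 were 3.48 and 0.337 in control, 1.70 and 0.381 in negative and 2.66 and 0.774 in positive neurons. Every neuron sum lay above the SGC of its library, and the control neurons of replicate 1 lay above the positive neurons of both libraries. The control neurons of replicate 1 held only 21 SGC marker UMIs and the negative neurons of injury replicate 1 held 40, so these ratios rest on few counts. The part of SGC RNA in the *Vim* values of neurons was not tested. Positive neurons also held more UMIs each, with medians of 32502 and 41231 against 30836 and 21383.

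The neurofilament chains did not move together with *Sprr1a*. *Nefh* was at 192 and 522 CPM in the positive neurons and 444 and 229 CPM in the negative neurons of injury replicates 1 and 2, so that it was lower in the positive neurons of replicate 1 and higher in those of replicate 2. *Nefl* followed the same pattern, at 1540 and 2921 against 2070 and 1869 CPM, as did *Nefm*, at 356 and 473 against 423 and 305 CPM. *Prph* was at 3126 and 3273 CPM in positive and 3399 and 3765 CPM in negative neurons, lower in the positive neurons of both libraries on this scale. The fitted log2 difference between positive and negative neurons was 0.0076 for *Prph* (edgeR, adjusted p = 0.993). *Ina* was at 116 and 77.6 against 111 and 69.7 CPM. Between positive and control neurons the log2 differences were 0.92 ± 0.45 for *Nefh*, 0.47 ± 0.28 for *Nefl*, 0.40 ± 0.24 for *Nefm*, 0.91 ± 0.31 for *Ina* and 0.01 ± 0.18 for *Prph* (edgeR, adjusted p from 0.104 to 0.976), and none was called. Without the filter on low counts *Nefh* (adjusted p = 0.0090) and *Ina* (0.0221) passed, with 1787 of all genes called, against 963 in the main fit. Neurons of the large myelinated marker list made up 4 of the 25 positive and 3 of the 14 negative neurons of injury replicate 1, and 4 of 24 and 7 of 69 of injury replicate 2. Single barcodes also held much of *Nefh*. In injury replicate 1, 1 barcode gave 143 of the 188 *Nefh* UMIs of negative neurons and 1 gave 116 of the 236 of positive neurons. In injury replicate 2, 3 barcodes gave 505 of 578 in positive and 3 gave 277 of 446 in negative neurons. The median over neurons was 1.17 and 0.909 *Nefh* UMIs per 10000 UMIs in positive and 1.23 and 0.793 in negative neurons. The part of this mix and of these barcodes in the neurofilament values was not tested.

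**Figure D3:**
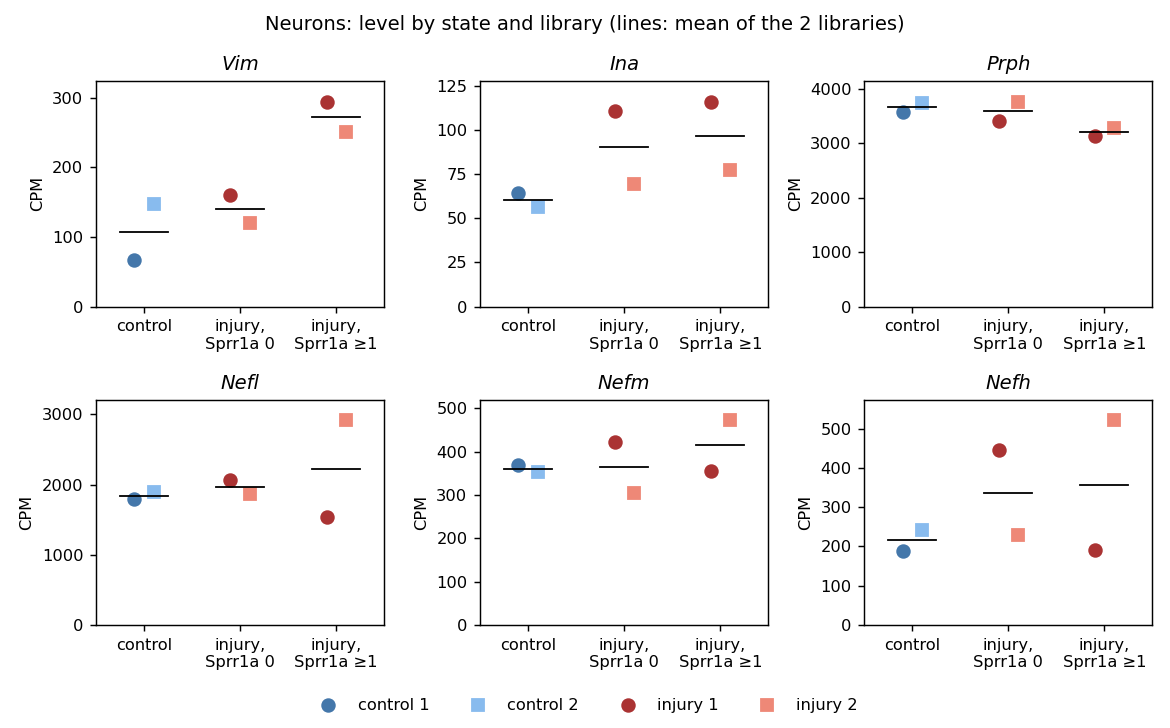
Level (CPM) of 6 members in summed neurons, by state (control, injury without *Sprr1a*, injury with *Sprr1a*), with 1 point per library and a line at the mean of the 2 libraries. The positive *Vim* points are at 294 and 251 CPM, above all others, while the positive *Nefh* points are at 192 and 522 CPM, the first between the control points and the second above them.

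Among genes that associate with these filaments, *Hspb1*, a small heat shock protein that binds filaments, was higher in the positive neurons. It was the 1 of 9 tested genes of a list of 16 filament companions (lamins, keratins, linkers and chaperones) called against control neurons (2.98 ± 0.302, log2; edgeR, adjusted p = 0.0026) and against negative neurons (2.04 ± 0.292, adjusted p = 0.0132). With 10.3% and 4.25% of all genes called in these comparisons, 1 of 9 is near the background and says nothing of the list. Of 6 genes of axonal growth and transport, 3 rose in both comparisons. *Gap43*, a growth cone protein, rose by 2.63 ± 0.247 against control, *Tubb3*, a neuronal tubulin, by 1.56 ± 0.225 and *Stmn2*, which regulates microtubules, by 1.46 ± 0.254 (log2, adjusted p = 0.0022, 0.0064 and 0.0122). *Tubb3* and *Stmn2* also belong to the neuron gate. The values of *Map1b*, *Mapt* and *Kif5a* did not pass. After crush in whole types, 0 companions were called.

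Between types, 9 companions were tested. In neurons 6 were higher than in the non-neuronal types and 1 was lower, against 41.3% and 11.5% of all genes. *Synm*, an intermediate filament protein that joins desmin and vimentin polymers, was higher by 6.19 ± 0.280 (log2), and *Hspb1* by 4.84 ± 0.296. The plakin linkers *Dst* and *Plec* were higher by 4.50 ± 0.201 and 2.71 ± 0.204, and lamin B1 (*Lmnb1*) differed by -2.90 ± 0.542 (edgeR, adjusted p at most 7.9e-06). Myelinating Schwann cells exceeded SGC in the lens and muscle chaperone *Cryab* (-2.34 ± 0.383) and lamin A (*Lmna*, -1.71 ± 0.246), while *Macf1* and *Dst* were higher in SGC (3.93 ± 0.696 and 1.00 ± 0.242, adjusted p at most 0.00152), against 18.6% of all genes called in either direction. Endothelial cells had higher *Hspb1* (5.71 ± 0.291) and *Synm* (4.34 ± 0.518), with 30.3% of all genes called. Pericytes had lower *Synm* than smooth muscle (-2.66 ± 0.529), with 5.63% of all genes called.

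Neurofilament sums differed between neuron classes, which were set by marker lists. Neurons were assigned by fixed class markers to 43 large myelinated, 90 peptidergic, 24 nonpeptidergic, 38 *Th* and 7 *Sst* neurons, with 149 in no class. A class is named by the marker list with its highest scaled score. In summed CPM the peptidergic list was above the class's own list in 4 of the 5 classes, at 1844 against 1626 CPM in the large myelinated, 2195 against 1471 in the nonpeptidergic, 1336 against 818 in the *Th* and 941 against 566 in the *Sst* class. It was at 12227 CPM in the peptidergic class, where the large myelinated list was at 26.7 CPM. On that measure the names do not hold for these 4 classes, and they stand here for the marker lists alone. The comparison planned, with nonpeptidergic neurons, could not be made, as only control replicate 2 held 10 of both. Peptidergic neurons were used in its place, after these counts were seen. *Nefh* was at 959 and 1514 CPM in the large myelinated class of control replicate 2 and injury replicate 2 (24 and 11 neurons) and at 145 and 90.6 CPM in their peptidergic class. *Nefm* was at 826 and 1197 against 309 and 187 CPM, and *Nefl* at 2991 and 6296 against 1241 and 1181 CPM. In both libraries the 3 chains were higher in the large myelinated class, by 3.49 ± 0.459 for *Nefh*, 2.16 ± 0.432 for *Nefm* and 1.97 ± 0.428 for *Nefl* (log2, SE, n = 2 libraries; edgeR, adjusted p = 3.0e-05, 0.00233 and 0.00474). In this comparison 7.64% of all genes were called, 3.93% higher and 3.7% lower, and the 3 calls held with another normalization and without the filter on low counts.

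These sums rested on few neurons. In the large myelinated class of control replicate 2, 1 barcode gave 332 of the 390 *Nefh* UMIs, and the rest were at 168 CPM. In injury replicate 2, 4 of the 11 barcodes gave 604 of 616, and the rest were at 122 CPM. The barcodes with the most UMIs of each gene gave 535 of 1216 *Nefl* UMIs (1 barcode) and 2385 of 2562 (4 barcodes) in the same libraries. The median neuron had 0.835 and 2.51 *Nefh* UMIs per 10000 UMIs in the large myelinated class, against 0.627 and 0.821 in the peptidergic class. The *Nefh* difference thus describes a few barcodes rather than most neurons of the class. Without the 1 and 4 barcodes highest in each gene, *Nefm* was at 466 and 488 CPM and *Nefl* at 1972 and 1798 CPM, above the 309 and 187 CPM and the 1241 and 1181 CPM of the whole peptidergic class. As these barcodes were picked by the values themselves, no test was made without them.

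The other subunits did not follow the neurofilament chains. *Prph* was at 2922 and 1280 CPM in the large myelinated and 3626 and 3989 CPM in the peptidergic class, lower in both libraries (-0.85 ± 0.40, adjusted p = 0.273). *Ina* differed by -0.46 ± 0.42 (adjusted p = 0.659). *Vim* was lower in the large myelinated class, at 103 and 71.3 against 225 and 241 CPM (-1.30 ± 0.37, adjusted p = 0.0324). The nonpeptidergic class of control replicate 2 had a *Nefl* level of 2940 CPM, against 2991 CPM in the large myelinated class of that library, with *Nefh* at 92.9 CPM. The *Th* class had 75.0 and 93.0 CPM of *Nefh* in control replicate 2 and injury replicate 2.

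**Figure D4:**
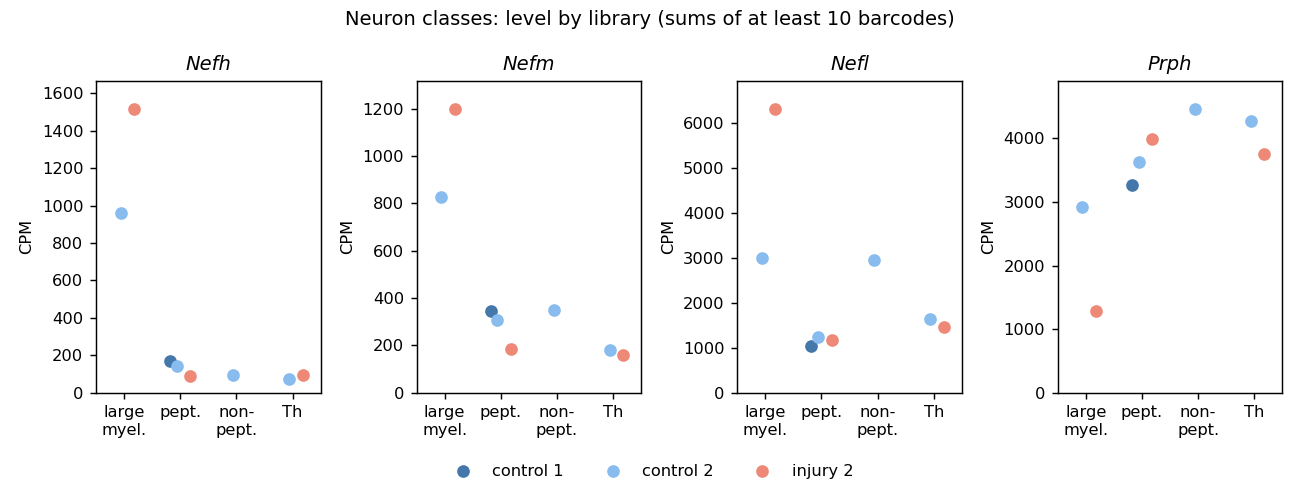
Level (CPM) of *Nefh*, *Nefm*, *Nefl* and *Prph* in 4 neuron classes named by their marker lists, 1 point per library with at least 10 barcodes of the class. The large myelinated *Nefh* points are at 959 and 1514 CPM, above all other classes and largely from 1 and 4 barcodes, while the *Prph* points of the same class are at 2922 and 1280 CPM, the lowest shown.

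Single neurons spread over very different ranges for these genes. In control replicate 2, the central 80% of 192 neurons lay between 22.0 and 50.7 *Prph* UMIs per 10000 UMIs and between 6.68 and 29.5 for *Nefl*. *Nefh* had a median of 0.714 and a highest value of 54.2, and 140 of the 192 neurons had a UMI of it. *Nefl* and *Nefm* varied together over the neurons of each library, with Spearman coefficients of 0.730 and 0.422 in control and 0.661 and 0.548 after crush. *Prph* and *Nefm* did not, with coefficients of -0.00488, -0.306, 0.119 and -0.0819. Neurons of 1 library share its depth and class mix, so these are descriptions.

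The genes most like each member were taken by a fixed rule among genes that were neither gate markers nor members. Over 15 types (mean of libraries, log2(CPM + 1)), the 3 genes nearest to *Gfap* by Pearson correlation were *Fads6* (0.888), *Ppp1r1b* (0.876) and *Foxd3* (0.868). The types did not include remaining glia, and 7256 genes were ranked. All 3 genes were highest in non-myelinating glia, where the *Gfap* level rests on 2 and 12 UMIs. *Nes* was nearest to *Col4a2* (0.908), *Smtn* (0.891) and *Angpt2* (0.888), *Des* to *Slc2a4* (0.978), *Pi15* (0.953) and *Rasl12* (0.943), and *Vim* to *Echs1* (0.873), *Hsd17b10* (0.865) and *Tmed7* (0.849). Over neurons, by the mean Spearman coefficient of the 4 libraries, *Prph* was nearest to *Hspa8* (0.510), *Tubb5* (0.484) and *Slc25a4* (0.473), and *Nefh* to *Atp1b1* (0.427), *Magee1* (0.363) and *Nfasc* (0.359).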

How the data were processed

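The authors deposited, per library, Cell Ranger's unscaled counts of UMIs (mm10), before the cell limits and CPM scaling of their Partek Flow analysis. The paper describes the deposit as a filtered count matrix, and RNA of empty droplets was not measured here. The annotation release was not given in the sources used here. Cell Ranger counts reads on the gene's strand, so *Nefl* and *Nefm* are counted apart. All 6975 barcodes were kept, and no doublet caller was run.

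Each barcode took the type with the highest mean log(UMIs per 10000 + 1) over fixed markers, given 3 detected markers and a lead of 1.5 over the next type. UMIs were summed per library and type (at least 10 barcodes) and tested with edgeR 4.0.16 (R 4.3.3; TMM, filterByExpr, quasi-likelihood test, Benjamini-Hochberg over all genes, called under 0.05), with type fits blocked by library. SE is the log2 change over the square root of F. Cells were not used as replicates. In the fits by condition alone, p-values measure the spread between libraries. Where the library or the title number was a term, they measure how far the differences within a library or number varied. The main *Sprr1a* fit and the interaction fits had no library term, so sums of the same library were treated as independent. Neuron classes took SD-scaled marker scores with a gap of 0.5. Simulated counts with 200 changed genes tested the scripts. All genes of a comparison were drawn with the same dispersion. The draws thus lack the differences between genes in spread, and the shares called need not hold for the real libraries. Of simulated log2 changes of 1 and 2, 9% and 70% were called in SGC after crush and 8% and 71% in neurons. For the interaction of SGC and macrophages 0% and 4% were called, so an uncalled interaction says little. DESeq2 1.42.0, another normalization (RLE), no filter on low counts, the study's cell limits (600 to 15000 UMIs, 500 to 4000 genes, under 10% mitochondrial) and its log2 limit of 2, a stricter (2.5) and looser (1) gate, each library left out and the title number as a block were the alternatives. The members, lists and comparisons were chosen with earlier results of these data known. Named genes are the 9 members, the companions that passed a test and the 3 nearest genes of a member.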

Additional observations from a re-analysis of the deposited data

How the results depend on the processing

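The numbers of members called were the same under most settings. After crush in SGC the count was 0, and 1 (*Gfap*) without the filter on low counts and with the replicate block, and between 0 and 1 with a library left out. *Gfap* fell below the low count filter under the study's cell limits, the stricter gate and without injury replicate 1, so that no test of it could be made there. The block is only a shared title number. The deviations of same-numbered libraries correlated by 0.278 over 9482 genes in SGC, and the block moved the count of all genes called there from 0 to 20. In neurons after crush the count rose from 0 to 1 without the filter. Between SGC and myelinating Schwann cells it fell from 2 to 1 with RLE, DESeq2, the study's limits and the looser gate, and was 1 with any library left out. Between non-myelinating glia and myelinating Schwann cells it rose from 1 to 2 without the filter, under the study's limits and with the looser gate, and was 0 to 1 with a library left out. For neurons against other types *Ina* was lost with DESeq2 (5.99, adjusted p = 0.310). The pooled *Gfap* ratio of non-myelinating glia turned from 1.38 to 0.592 without control replicate 1. For endothelial cells it rose from 1 to 2 with DESeq2. For positive against negative neurons it rose from 0 to 1 without the filter and with the library as a block, and was 0 to 1 with a library left out. For positive against control neurons it rose from 1 to 3 without the filter and fell to 0 with *Atf3*, and was 0 to 1 with a library left out.

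Directions reversed for uncalled subunits alone. The *Atf3* split among these settings is the less sharp one, as 102 of 219 control neurons had an *Atf3* UMI. Against control, *Prph* turned to -0.084 with 2 *Sprr1a* UMIs and to -0.079 with *Atf3*, and *Nefl* ran from -0.0085 to 0.85 with a library left out. Against negative neurons, *Prph* turned to -0.16 with 2 UMIs, to -0.32 with *Atf3*, to -0.0081 with the library as a block, and ran from -0.056 to 0.10 with a library left out. *Nefl* turned to -0.13 with 2 UMIs, and *Ina* to -0.59. With a library left out *Nefl* ran from -0.21 to 0.79, *Nefm* from -0.030 to 0.78 and *Nefh* from -0.99 to 1.34, all lowest without injury replicate 2. Leaving out a library could not be run for the neuron classes, as 2 libraries held both. The causes were not tested. Counts over all genes ranged from 1 to 1235 for positive against negative neurons, from 81 to 1787 against control, from 0 to 602 in neurons after crush and from 0 to 236 in macrophages. With 2 libraries per condition and few UMIs, levels near 3 counts cannot be compared.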

Other observations

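The neuronal subunits also gave UMIs outside neurons. Of the UMIs of the 5 neuronal members, *Prph* made up 59.7% and 59.5% in the neurons of the control libraries and 56.9% and 54.3% in those of the injury libraries. In SGC of the last 3 libraries it made up 32.7% (exact binomial interval 27.4 to 38.3), 18.2% (9.76 to 29.6) and 29.5% (21.8 to 38.1), with control replicate 1 holding only 9 such UMIs. *Nefl* made up 30.1%, 29.8% and 34.0% in the neurons of those 3 libraries and 48.5% (42.7 to 54.3), 63.6% (50.9 to 75.1) and 55.8% (46.8 to 64.5) in their SGC. The ratio of both genes in SGC was thus not that of the neurons kept in the same library. The other non-neuronal types together showed the same direction in these libraries, with *Nefl* at 40.9%, 45.7% and 47.2%, and at 24.1% (16.4 to 33.3) in control replicate 1. The source of these UMIs was not tested.

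Among SGC of the injury libraries, barcodes with a *Gfap* UMI had *Vim* at 6459 CPM in injury replicate 1 and 3620 CPM in injury replicate 2, against 5120 and 3233 CPM in barcodes without one. The median depth of the barcodes with *Gfap* was 4252 and 4996 UMIs, against 3143 and 4914. In remaining glia of injury replicate 1 the *Vim* values were 6281 and 4079 CPM. These are descriptions of barcodes within a library.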
